A study of Mus musculus with 9 samples.

Results

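Eph receptors and ephrins were examined in mouse embryonic stem cells with and without β-catenin. The set was a fixed list of 10 genes, namely the receptors Epha1, Epha2, Epha4, Epha7, Ephb2, Ephb3 and Ephb4 and the ligands Efna1, Efnb1 and Efnb2, each taken by its gene symbol. Of these, 9 had a feature with a single symbol among the 19938 genes measured, each 1 feature only, and Ephb2 was not analysed here. Levels were log2 values made by the authors with RMA, which summarises the probes of an Affymetrix whole-transcript array into 1 value per transcript. A difference of 1 log2 unit is a change of 2-fold. A feature's brightness also depends on its probes, so such values compare a gene between arrays and do not order genes by the amount of their transcript.

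Eph receptors are the largest family of receptor tyrosine kinases, and their ligands, the ephrins, are bound to the membrane of the neighbouring cell. A-type ephrins are held by a lipid anchor and B-type ephrins span the membrane, so that contact between cells can signal into the receptor cell and, in reverse, into the ephrin cell. The pathway sorts cells, sets tissue boundaries and tunes adhesion, and in the mouse intestine Ephb2 and Ephb3 are known targets of β-catenin and TCF.

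There were 9 arrays in 3 groups of 3 biological replicates, from cells of a mixed S129S6-C57BL/6 background. Null Eα cells lacked both β-catenin alleles and stably carried a construct that fuses E-cadherin to α-catenin. Null cells lacked both alleles, and their labels name no construct. Flox cells, the controls, had 1 allele deleted and the other floxed, so all 3 groups had lost at least 1 allele. Cells grew on gelatin in 15% fetal calf serum and 1000 U/ml LIF, the cytokine that maintains mouse stem cells, and were taken before they were confluent. The labels do not say whether a group was 1 clone, whether flox and null cells came from the same line, or which promoter drove the fusion. A difference between groups is thus a difference between genotype and line together, and p-values measure the spread between these arrays, which may be technical.

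Ctnnb1, the gene of β-catenin, spanned 10.13 to 10.32 in null Eα, 10.47 to 10.55 in null and 11.13 to 11.21 in flox cells. The groups did not overlap, and both deleted lines were lower than flox, but which of its probes lie in the deleted part was not examined. The genes of the fusion did not separate the lines. Null Eα minus null was -0.10 for Cdh1, the gene of E-cadherin, and -0.05 for Ctnna1, that of α-catenin (limma adjusted p = 0.344 and 0.638). Ctnna1 was higher than in flox by 0.99 in null Eα and by 1.04 in null cells. Whether their probes match the construct was not examined. Among stem cell markers, Pou5f1 lay at 11.31 to 11.42 in null Eα, 10.75 to 10.82 in null and 11.42 to 11.46 in flox cells. Zfp42 averaged 8.26 in null Eα, 5.34 in null and 8.65 in flox cells. Neither of the 2 was called in null Eα against flox cells (limma adjusted p = 0.264 and 0.162). All 9 stem cell markers passed the test in null against flox cells, 7 lower and 2 higher. All 9 also passed in null Eα against null cells, 8 higher and 1 lower, while in null Eα against flox cells 4 fell and 1 rose. Fibroblast markers ran the other way. The mean level of 13 such markers was 7.47 to 7.76 in null Eα, 8.01 to 8.75 in null and 5.33 to 5.50 in flox cells, and 11 of the 13 rose in each deleted line against flox, while 6 of 13 fell in null Eα against null cells. Col1a1, a fibroblast collagen, averaged 10.08 in null Eα and 11.19 in null cells, but Meox1 averaged 4.83 and 4.77, with 4.85 in flox cells. Both marker lists differed between the groups, and their part in the differences described below was not tested. For comparison, 55.2% of all genes were called in null against flox, 63.7% in null Eα against flox and 31.7% in null Eα against null cells. In a bulk extract, fewer cells of a type and less RNA per cell cannot be told apart. For several genes null Eα replicate 3 was close to null cells, and values without it are given there.

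The start regions of 4 genes are shown because these had the largest differences from flox among the 9, Efnb2 and Ephb3 in null cells and Epha2, Efnb2 and Epha7 in null Eα cells. The sequences are from RefSeq on the mouse build GRCm38.p6 and read 5′ to 3′ on the gene's own strand up to the outermost annotated start of the gene. Capitals mark CTTTGA, the core that TCF factors bind, the GC box GGGCGG, and TATAAA, each on either strand. The regions are chr8:8661243-8661492 on the minus strand for Efnb2, chr16:21204545-21204619 on the plus strand for Ephb3, chr4:141300971-141301220 on the plus strand for Epha2 and chr4:28812881-28813065 on the plus strand for Epha7.
Efnb2: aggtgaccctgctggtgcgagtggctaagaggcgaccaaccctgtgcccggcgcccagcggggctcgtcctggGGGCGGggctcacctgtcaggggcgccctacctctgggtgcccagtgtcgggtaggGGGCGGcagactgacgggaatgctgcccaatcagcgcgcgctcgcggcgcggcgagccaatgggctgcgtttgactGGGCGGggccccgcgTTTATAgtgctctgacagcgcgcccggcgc
Ephb3: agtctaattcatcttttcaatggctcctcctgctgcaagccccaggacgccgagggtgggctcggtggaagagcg
Epha2: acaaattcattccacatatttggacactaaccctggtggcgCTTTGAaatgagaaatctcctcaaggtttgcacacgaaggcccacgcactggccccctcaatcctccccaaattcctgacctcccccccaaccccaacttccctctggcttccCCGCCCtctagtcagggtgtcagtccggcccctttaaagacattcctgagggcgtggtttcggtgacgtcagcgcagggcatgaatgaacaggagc
Epha7: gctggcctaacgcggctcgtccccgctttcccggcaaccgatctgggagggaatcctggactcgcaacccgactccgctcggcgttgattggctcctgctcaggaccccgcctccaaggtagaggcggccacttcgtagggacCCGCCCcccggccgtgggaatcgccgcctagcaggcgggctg

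All 10 listed genes had a start region in the RefSeq table, from 250 bases before to 50 bases after a start, and the first listed start was used for genes with several. Of the 10 regions, 1 held CTTTGA, that of Epha2 (at position -209 from the start), against 16.0% of all 32851 regions of the same length. The variant CTTTGT was in 0 of 10, against 18.7% of all regions. The GC box was in 8 of 10, against 35.7% of all regions. TATAAA was in 1, that of Efnb2, against 13.6%. GC content was 54.7% to 72.3% in the 10 regions, and 7 of them lay above 61.7%, the upper quartile of all regions. Efnb2 had the highest, with 35 CpG pairs, against a median of 7 over all regions. A match is a description of letters in this window and not a binding site.

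In null against flox cells, 4 of the 9 measured genes rose, Efnb2, Epha1, Epha2 and Efnb1, and 3 fell, Ephb3, Epha4 and Efna1, at an adjusted p under 0.05. Across all genes 55.2% were called in this comparison, 26.5% higher and 28.7% lower. In null Eα against flox cells, 3 rose, Epha2, Efnb2 and Efnb1, and 1 fell, Epha7, where 63.7% of all genes were called, 32.1% higher and 31.6% lower. In null Eα against null cells, 3 rose, Ephb3, Epha2 and Epha4, and 4 fell, Epha7, Efnb2, Epha1 and Ephb4, where 31.7% of all genes were called, 13.6% higher and 18.1% lower. The median change of the 9 genes was 0.31 in null against flox, 0.03 in null Eα against flox and -0.10 in null Eα against null, beside 0.06, 0.07 and 0.05 over all genes. Without regard to sign the medians were 0.37, 0.20 and 0.65, beside 0.32, 0.37 and 0.20 over all genes. All 9 genes had a mean over the 9 arrays at or above the median of all features, 6.01. Among the 11285 genes that bright, tested alone, 71.7%, 71.2% and 49.2% were called in the same order of comparisons. The median changes of those genes were -0.13, -0.25 and -0.06, and their medians without regard to sign were not computed. With so many genes called, a call alone says little, and size and overlap are given for each gene. The first count fell to 4 genes without flox replicate 3, and the last to 4 without null replicate 2, null replicate 3 or null Eα replicate 1. The comparisons share arrays in pairs and are not independent of each other.

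**Figure D1:**
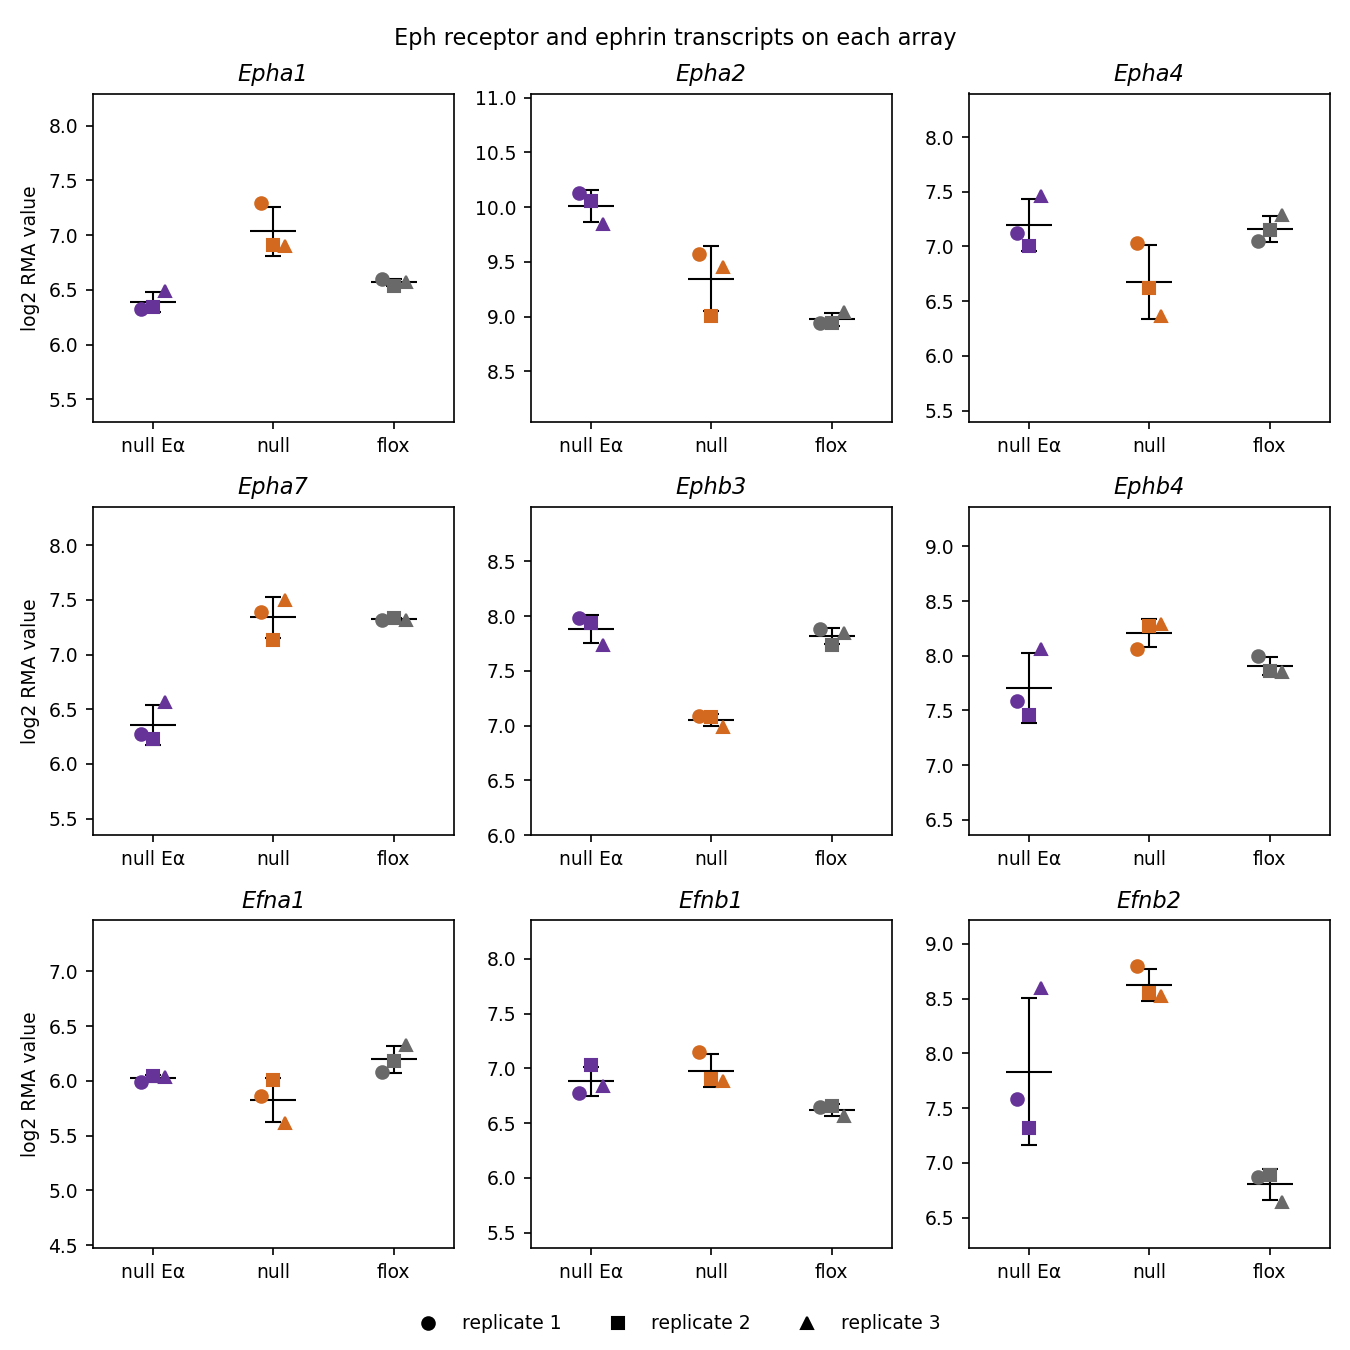
Log2 RMA value of the 9 measured Eph receptor and ephrin genes on each array, in the order null Eα, null and flox, with a panel per gene and the same height in log2 units in each. Points are arrays (circle, square and triangle for replicates 1, 2 and 3) and the line with bars is the group mean ± SD of 3 arrays. Efnb2 in null Eα cells has 1 array, replicate 3 at 8.59, at the level of the null arrays.

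Of the A-type receptors, Epha2 rose in both deleted lines and was highest in the line with the fusion. Epha2 binds ephrin-A1 at cell contacts and is found in mouse stem cells and epithelia. Its values were 10.13, 10.06 and 9.84 in null Eα cells, 9.57, 9.01 and 9.46 in null cells and 8.94, 8.94 and 9.04 in flox cells. All null Eα arrays lay above every null and every flox array, whereas null replicate 2 lay within the flox range. Epha2 rose by 1.04 ± 0.14 log2 units (limma's standard error, here and below) in null Eα against flox cells, a factor of 2.05 (n = 3 arrays per group, limma adjusted p = 0.000101). It rose by 0.67 ± 0.14 in null Eα against null cells (adjusted p = 0.0045). The rise in null against flox cells was 0.37 ± 0.14 (adjusted p = 0.0407), which did not pass the threshold after median centring or after removal of any 1 flox array, of null replicate 1 or 3, or of null Eα replicate 2 (0.26 to 0.40 across these, adjusted p up to 0.15). After quantile normalization that rise was 0.57 (adjusted p = 0.00422).

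Epha7 fell in the line with the fusion, against both other groups. Epha7 is a receptor best known from the developing brain, where it guides axons and shapes the neural folds. It measured 6.28, 6.22 and 6.57 in null Eα cells, 7.39, 7.13 and 7.50 in null cells and 7.31, 7.34 and 7.32 in flox cells. Every null Eα array lay below every other array, and the null and flox arrays overlapped. The fall was 0.98 ± 0.11 log2 units in null Eα against null cells (limma adjusted p = 0.000159) and 0.97 ± 0.11 in null Eα against flox cells (adjusted p = 4.6e-05), a factor of 0.512. Null and flox cells differed by 0.019 ± 0.11 (adjusted p = 0.898), with a 95% interval of -0.23 to 0.27. Epha2 and Epha7 both lie on chromosome 4, where the median change of brighter genes was -0.20 in null Eα against flox and -0.01 in null Eα against null cells. Over the brighter genes of all chromosomes together it was -0.25 and -0.06. Of 4 neural markers 1 rose and 1 fell in null Eα against null cells, and their mean level was 6.07 to 6.64 in null Eα, 6.57 to 6.63 in null and 6.19 to 6.28 in flox cells. Their part in the Epha7 difference was not tested. Brighter genes are those whose mean over the 9 arrays reached the median of all features, 6.01.

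Epha1 was highest in null cells. Epha1, an epithelial receptor of ephrin-A1, measured 6.33, 6.34 and 6.49 in null Eα cells, 7.29, 6.91 and 6.90 in null cells and 6.60, 6.53 and 6.58 in flox cells. Null arrays lay above all flox arrays and null Eα arrays below all flox arrays. The rise in null against flox cells was 0.47 ± 0.11 (limma adjusted p = 0.00389), and the change in null Eα against null cells was -0.65 ± 0.11 (adjusted p = 0.00136). Null Eα and flox cells differed by -0.18 ± 0.11 (adjusted p = 0.16), with a 95% interval of -0.42 to 0.06. Epha1 lies on chromosome 6, where that median was -0.57 in null Eα against flox and -0.34 in null Eα against null cells. With each chromosome centred, Epha1 was 0.39 higher in null Eα than in flox cells (adjusted p = 0.00754), and its change against null cells was -0.30 (adjusted p = 0.0447).

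Epha4 was lower in null cells by a call that several settings removed. Epha4 is a receptor that binds both A-type and B-type ephrins and acts in axon guidance. Its values were 7.12, 7.00 and 7.46 in null Eα cells, 7.03, 6.62 and 6.36 in null cells and 7.05, 7.15 and 7.28 in flox cells. Null arrays lay below all flox arrays, replicate 1 of them narrowly, and overlapped the null Eα arrays. The change in null against flox cells was -0.49 ± 0.17 (limma adjusted p = 0.0305), a call lost without flox replicate 2, flox replicate 3, null replicate 2 or null replicate 3 (-0.33 without the last) and after quantile normalization (-0.38). The difference between null Eα and null cells was 0.52 ± 0.17 (adjusted p = 0.0378) and was not called under 10 of the 17 alternative settings. In null Eα against flox cells it was 0.034 ± 0.17 (adjusted p = 0.868), with an interval of -0.34 to 0.41.

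Of the B-type receptors, Ephb3 fell in null cells and overlapped flox in cells with the fusion. Ephb3 positions cells along the crypt of the mouse intestine, where it is switched on by β-catenin and TCF. It measured 7.98, 7.93 and 7.74 in null Eα cells, 7.09, 7.07 and 6.98 in null cells and 7.88, 7.73 and 7.84 in flox cells. The null arrays lay apart from all others, and the null Eα and flox arrays overlapped. Ephb3 fell by 0.77 ± 0.08 in null against flox cells (limma adjusted p = 2.14e-05), a factor of 0.586, and rose by 0.84 ± 0.08 in null Eα against null cells (adjusted p = 6.44e-05), a factor of 1.79. Both calls held under all 17 alternatives run, with adjusted p up to 0.000466 and 0.00106. Null Eα and flox cells differed by 0.066 ± 0.08 (adjusted p = 0.501), with a 95% interval of -0.12 to 0.25, but the difference was called higher after quantile normalization (0.36, adjusted p = 0.0124) and with each chromosome centred (0.25, adjusted p = 0.0196). Ephb3 lies on chromosome 16, where the median change of brighter genes was -0.18 in null Eα against flox cells, beside -0.25 over all brighter genes. The Ephb3 start region, of which the printed stretch is the upstream bases, holds no CTTTGA.

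Ephb4 differed between the lines without β-catenin. Ephb4, the receptor of ephrin-B2, marks veins in the vertebrate embryo. It measured 7.59, 7.46 and 8.06 in null Eα cells, 8.07, 8.27 and 8.29 in null cells and 8.00, 7.86 and 7.85 in flox cells. Null arrays lay above all flox arrays, and null Eα replicate 3 lay with them rather than with its 2 companions. The change in null Eα against null cells was -0.51 ± 0.14 (limma adjusted p = 0.0206). Removal of null replicate 2 or 3, or of null Eα replicate 1 or 2, ended this call, as did a fit of these 2 groups alone (adjusted p up to 0.0771). The difference was 0.31 ± 0.14 in null against flox cells (adjusted p = 0.0923) and -0.20 ± 0.14 in null Eα against flox cells (adjusted p = 0.227). Without null Eα replicate 3 both passed the threshold, the first at an adjusted p of 0.0124 and the second at -0.38 (adjusted p = 0.00648). The first also passed after quantile normalization (0.49, adjusted p = 0.0115), with each chromosome centred (0.46, adjusted p = 0.0151) and in a fit of its 2 groups alone (adjusted p = 0.0151).

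Among the ligands, Efnb2 gave the largest difference of the 9 genes. Efnb2 encodes ephrin-B2, a membrane-spanning ligand that marks arteries in the vertebrate embryo and is a partner of Ephb4. It measured 7.58, 7.32 and 8.59 in null Eα cells, 8.80, 8.56 and 8.53 in null cells and 6.87, 6.89 and 6.64 in flox cells. Every array of both deleted lines lay above every flox array, and null Eα replicate 3 lay inside the null range. Efnb2 rose by 1.82 ± 0.26 in null against flox cells, a factor of 3.54 (limma adjusted p = 0.000173), which exceeds the absolute change of 95.7% of all genes. The rise in null Eα against flox cells was 1.03 ± 0.26 (adjusted p = 0.00653) and 0.65 without null Eα replicate 3 (adjusted p = 0.00127), and 1.62 with each chromosome centred (adjusted p = 0.000317). Null Eα against null cells gave -0.79 ± 0.26 (adjusted p = 0.0427). That last call ended on removal of any 1 array but null Eα replicate 3, after quantile normalization and in a fit of these 2 groups alone (adjusted p up to 0.151). The change was -1.17 without null Eα replicate 3 (adjusted p = 6.88e-05). Efnb2 lies on chromosome 8, where the median change of brighter genes had the other sign, -0.59 in null Eα and -0.45 in null against flox cells. Flt1, an endothelial receptor, rose by 0.96 in null Eα and 2.06 in null against flox cells, and Kdr, another, by 0.56 in null Eα and 0.71 in null against flox cells (limma adjusted p = 0.0069 and 0.00182). Cdh5, the defining cadherin of endothelium, measured 5.02 to 5.24 in null Eα, 4.96 to 5.12 in null and 4.64 to 4.99 in flox cells, with a rise of 0.27 in null Eα (adjusted p = 0.0495) and a difference of 0.15 in null cells (adjusted p = 0.26) against flox. Of 8 endothelial markers 4 rose and 3 fell in null Eα against flox cells, and 2 rose and 3 fell in null against flox cells. The 3 that fell were the same in both, with changes of -0.64 in null Eα and -1.99 in null cells for Tek. Those of Robo4 were -1.07 and -1.40, and those of Esam -0.34 and -0.63. The part of the 8 markers in the Efnb2 difference was not tested. Their mean level was 5.64 to 5.65 in null Eα, 5.48 to 5.57 in null and 5.61 to 5.63 in flox cells.

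Efnb1 and Efna1 had the smaller changes of the ligands. Efnb1, an X-linked ligand of Ephb2 and Ephb3, measured 6.77, 7.03 and 6.84 in null Eα cells, 7.15, 6.90 and 6.88 in null cells and 6.65, 6.65 and 6.56 in flox cells, so both lines lay above flox and overlapped each other. It rose by 0.36 ± 0.10 in null against flox cells (limma adjusted p = 0.00951). The rise of 0.26 ± 0.10 in null Eα against flox cells (adjusted p = 0.0374) did not hold after removal of any 1 flox array or of null Eα replicate 2, or with median centring (adjusted p up to 0.13), and was 0.48 with each chromosome centred (adjusted p = 0.00118). Null Eα and null cells differed by -0.10 ± 0.10 (adjusted p = 0.461, interval -0.31 to 0.12). Efna1, the ligand of Epha1 and Epha2, measured 5.99, 6.05 and 6.04 in null Eα cells, 5.86, 6.00 and 5.61 in null cells and 6.08, 6.18 and 6.33 in flox cells. Null arrays lay below flox arrays, with a change of -0.37 ± 0.10 (adjusted p = 0.0122) that was not called without flox replicate 3. Null Eα cells differed by -0.17 ± 0.10 from flox (adjusted p = 0.172) and by 0.20 ± 0.10 from null cells (adjusted p = 0.173). Efna1 lies on chromosome 3, where the median change of brighter genes was -0.22 in null Eα against null cells, and with each chromosome centred its difference there was 0.42 and was called (adjusted p = 0.0105).

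**Figure D2:**
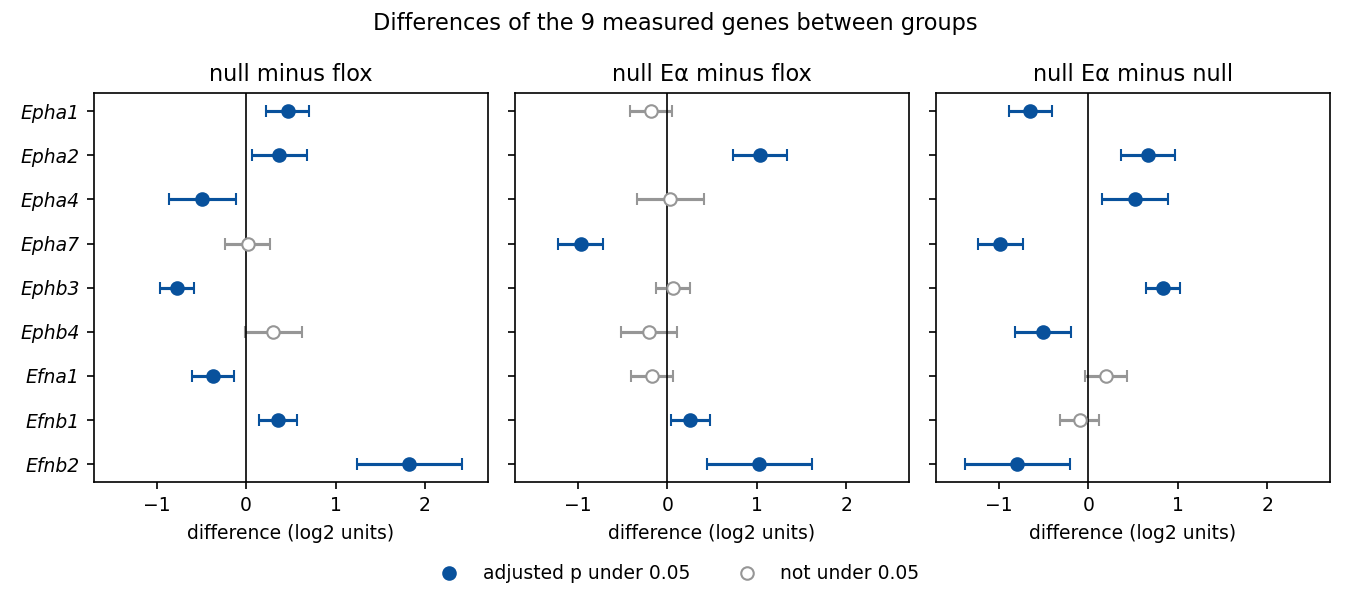
Difference in log2 units for each of the 9 measured genes in the 3 comparisons, with the 95% interval from limma as bars. Filled points have an adjusted p under 0.05, and Efnb2 in null minus flox stands farthest from 0 at 1.82.

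An exact two-sided permutation test on single genes cannot give less than 0.1 with 3 arrays against 3. That smallest value was reached by 7 of the 9 genes in null against flox, 6 in null Eα against flox and 5 in null Eα against null cells. These are the genes whose groups did not overlap, as did 67.4%, 69.5% and 43.1% of all genes in the same comparisons.

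In each of these genes the median shift of the chromosome was smaller than the difference, or ran against it, where the gene was called. The largest chromosome shifts beside a member were those of chromosomes 8 and 6 in null Eα against flox cells. Over all brighter genes the median was -0.13 in null against flox, -0.25 in null Eα against flox and -0.06 in null Eα against null cells. Centring each chromosome thus also removed a shift common to the brighter genes. The cause of the chromosome shifts was not tested.

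**Figure D3:**
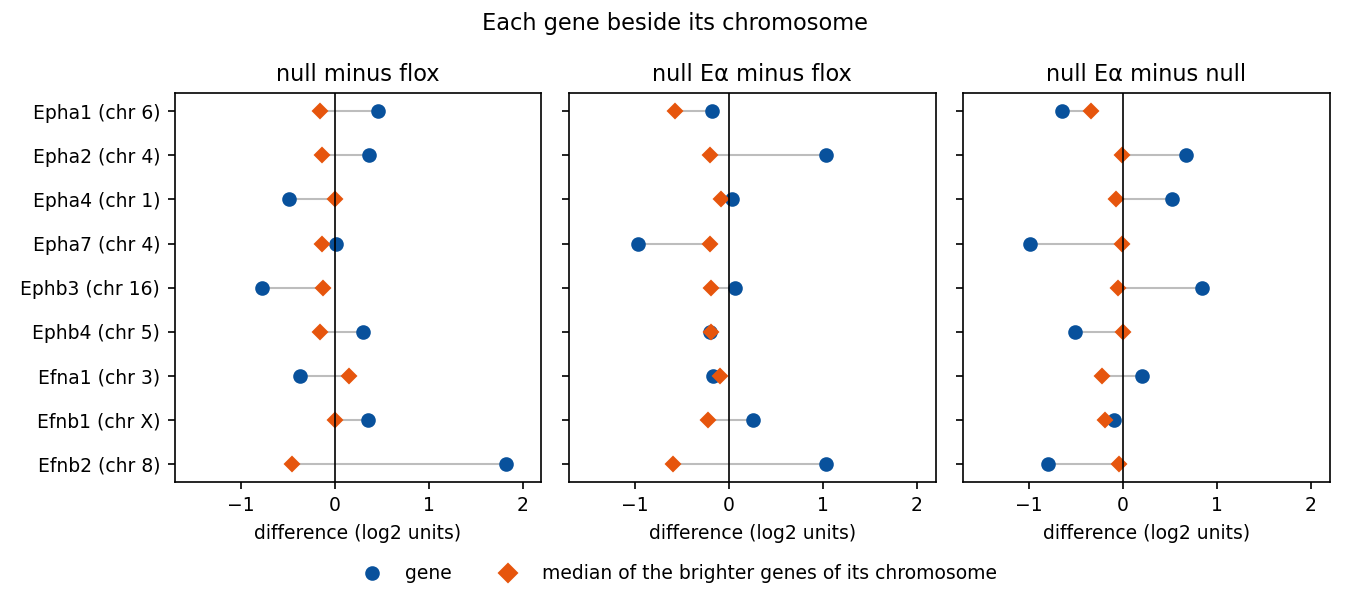
Difference in log2 units of each of the 9 genes (circles) beside the median difference of the brighter genes of its chromosome (diamonds), for the 3 comparisons. Efnb2, on chromosome 8, had a difference of 1.82 in null minus flox, where its chromosome's median was -0.45.

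Some known pairs of ligand and receptor can be set side by side, and others, such as those of Epha4, are left out. For ephrin-B2 and its receptor Ephb4 the changes were 1.82 and 0.31 in null against flox, 1.03 and -0.20 in null Eα against flox, and -0.79 and -0.51 in null Eα against null cells. Efnb1 and its receptor Ephb3 stood at 0.36 and -0.77, at 0.26 and 0.066, and at -0.10 and 0.84 in the same comparisons. Efna1 stood at -0.37, -0.17 and 0.20, beside 0.47, -0.18 and -0.65 for its receptor Epha1 and 0.37, 1.04 and 0.67 for Epha2. Which of these passed the test is given with each gene. Over the 9 arrays the highest correlation between 2 of these genes was that of Efnb1 and Efnb2 (Pearson r = 0.74), and the lowest that of Epha1 and Ephb3 (r = -0.89). Group differences carry these values, which are a description of 36 pairs with no test.

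The 12 other genes of the family were all measured. In null against flox cells 5 rose and 3 fell, in null Eα against flox cells 6 rose and 3 fell, and in null Eα against null cells 1 rose and 3 fell. These calls, 8, 9 and 4 of 12, stood beside 55.2%, 63.7% and 31.7% of all genes, and 4 of the 6 rises in null Eα against flox were those of the dim features of Epha3, Epha5, Epha6 and Ephb1. Among the 12, 3 ephrins had a called change of at least 1 log2 unit in some comparison. They were Efna3 and Efna5 in null against flox cells, where 15.3% of all genes had such a change. In null Eα against flox cells they were Efna2 and Efna3, beside 12.0% of all genes. In null Eα against null cells it was Efna5 alone, beside 4.83%. The members past that size were Efnb2 in null against flox and Efnb2 and Epha2 in null Eα against flox cells. Efna5, an A-type ligand of the developing brain, measured 5.65, 5.78 and 7.19 in null Eα cells, 7.64, 7.47 and 8.21 in null cells and 6.03, 6.04 and 6.06 in flox cells. Here again null Eα replicate 3 stood apart from its companions, on the side of the null arrays. Efna5 rose by 1.74 ± 0.35 in null against flox cells (limma adjusted p = 0.00164) and changed by -1.57 ± 0.35 in null Eα against null cells (adjusted p = 0.00683), or -2.06 without null Eα replicate 3. Its difference between null Eα and flox cells was 0.17 ± 0.35 (adjusted p = 0.683) and turned to -0.32 without that array.

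Efna3, another A-type ligand, measured 6.38, 6.29 and 6.44 in null Eα cells, 6.25, 6.61 and 6.54 in null cells and 7.41, 7.70 and 7.60 in flox cells. It fell by 1.20 ± 0.11 in null Eα and by 1.10 ± 0.11 in null cells against flox (adjusted p = 8.8e-06 and 1.29e-05). Every null Eα and null array lay below every flox array. Efna2, also an A-type ligand, measured 6.66, 6.56 and 7.12 in null Eα cells, 7.35, 7.33 and 7.08 in null cells and 8.03, 7.88 and 8.01 in flox cells. It fell by 1.20 ± 0.14 in null Eα and by 0.72 ± 0.14 in null cells against flox (adjusted p = 4.52e-05 and 0.00138). The change of -0.48 ± 0.14 in null Eα against null cells (adjusted p = 0.0265) was not called without null Eα replicate 1 (-0.41) or 2 (-0.37), without null replicate 1 (-0.43) or 2 (-0.44), or in a fit of these 2 groups alone (adjusted p = 0.0661). Efna1, Efna3 and Efna4 follow each other on chromosome 3 with 0 protein-coding genes between them, and the difference of Efna4 from flox was 0.0091 in null Eα cells (adjusted p = 0.916) and -0.22 in null cells (adjusted p = 0.0214). Quantile normalization turned these into a called rise of 0.31 in null Eα cells (adjusted p = 0.00394) and -0.0205 in null cells (adjusted p = 0.836), and removal of flox replicate 2 or 3, or of null replicate 1, also ended the null call (adjusted p up to 0.0695). Epha3, Epha5, Epha6 and Ephb1 had the dimmest features, with at most 24.3% of genes below them, and without detection calls their levels cannot be told from background.

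**Figure D4:**
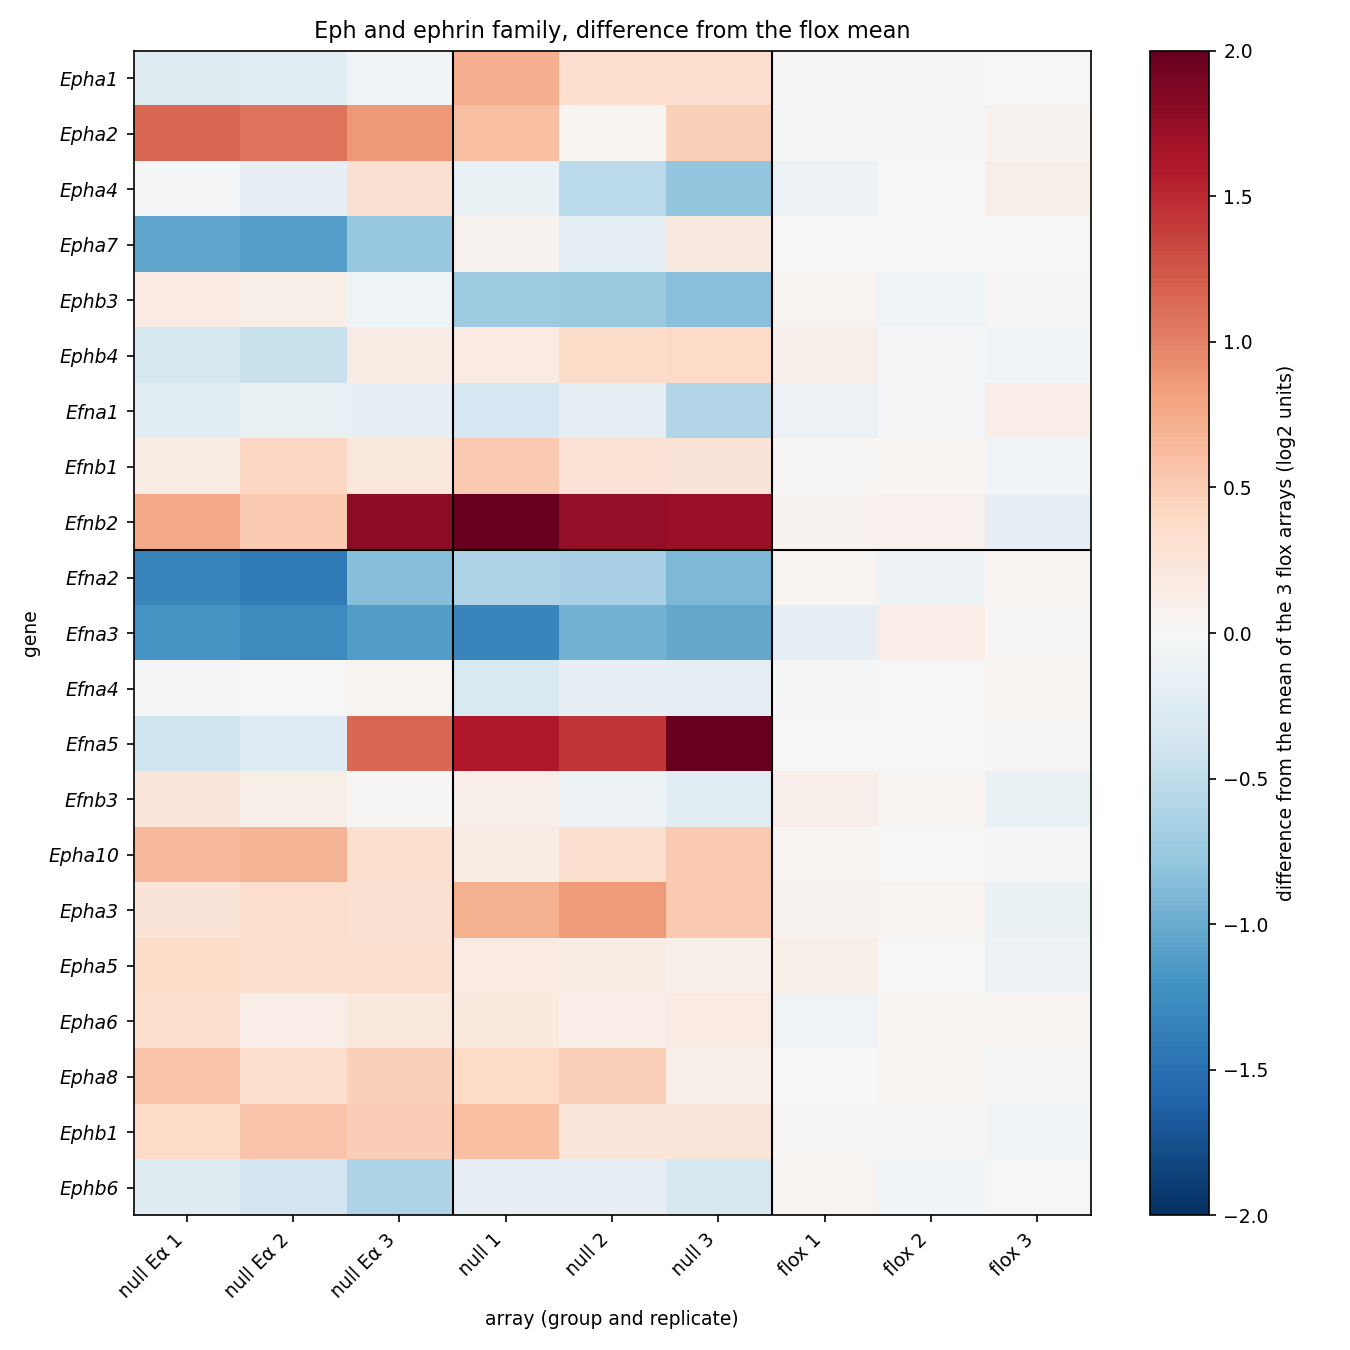
Difference of each array from the mean of the 3 flox arrays (colour, log2 units, scale from -2 to 2) for the 9 genes above the line and the 12 other genes of the family below it. Columns are arrays in the order null Eα, null and flox. Efnb2 and Efna5 are 2 of the rows where null Eα replicate 3 is nearer in colour to the null arrays than to its companions.

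Null Eα replicate 3 lay nearer to the null mean than replicates 1 and 2 in 6 of the 9 genes, Epha1, Epha2, Epha7, Ephb3, Ephb4 and Efnb2. The same held for 5 of the 12 other family genes and for 51.8% of all genes. For Efnb2 its distance from the null mean was -0.03, against -1.04 and -1.30 for replicates 1 and 2. For Ephb4 it was -0.15, against -0.62 and -0.75.

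Partners that carry the signal inside the cell were taken as a list of 36 kinases, adaptors, exchange factors and scaffolds, of which 35 were measured and Rock2 was not analysed here. In null against flox cells 11 rose and 10 fell, in null Eα against flox cells 5 rose and 14 fell, and in null Eα against null cells 4 rose and 12 fell. These called shares were 60.0%, 54.3% and 45.7%, beside 55.2%, 63.7% and 31.7% of all genes. The median change was 0.08, -0.08 and -0.15, beside 0.06, 0.07 and 0.05 over all genes. Most of the 35 are brighter genes. Over all brighter genes the median change was -0.13, -0.25 and -0.06, and 71.7%, 71.2% and 49.2% were called. Chn1, which encodes α2-chimaerin, a Rac inhibitor that acts below Epha4 in mouse axon guidance, fell by 1.42 ± 0.08 in null Eα and by 1.65 ± 0.08 in null cells against flox (limma adjusted p = 2.76e-07 and 6.16e-08). Its values were 7.25 to 7.47 in null Eα, 7.14 to 7.21 in null and 8.76 to 8.85 in flox cells. Chn2, its relative β-chimaerin, fell by 1.38 ± 0.12 (adjusted p = 4.74e-06) and Dvl2, a Dishevelled protein of the Wnt pathway, a family that acts with ephrin-B in Xenopus, by 1.29 ± 0.07 (adjusted p = 2.69e-07), both in null Eα against flox cells. Chn2 and Dvl2 lie on chromosomes 6 and 11, with medians of -0.57 and -0.56 in that comparison, and their changes with each chromosome centred were -0.82 and -0.73. Both were also lower in null than in flox cells, with changes of -1.07 ± 0.12 and -0.94 ± 0.07 (limma adjusted p = 2.51e-05 and 1.54e-06).

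The exchange factors Vav3 and Tiam1 had changes of opposite sign. Vav3, an exchange factor that acts below Eph receptors, measured 5.20, 5.06 and 5.69 in null Eα cells, 6.77, 6.82 and 6.92 in null cells and 5.05, 5.22 and 5.39 in flox cells. It rose by 1.62 ± 0.15 in null against flox cells (limma adjusted p = 6.69e-06) and fell by 1.52 ± 0.15 in null Eα against null cells (adjusted p = 6.04e-05). Tiam1, a Rac exchange factor that binds Eph receptors and ephrin-B1, measured 8.32, 8.35 and 8.21 in null Eα cells, 7.40, 7.22 and 7.07 in null cells and 8.59, 8.58 and 8.61 in flox cells. It fell by 1.36 ± 0.09 in null against flox cells (adjusted p = 5.09e-07) and rose by 1.07 ± 0.09 in null Eα against null cells (adjusted p = 2.18e-05). Crk, an adaptor, fell by 1.00 ± 0.11 in null Eα against null cells (adjusted p = 0.000109), on chromosome 11, where that median was -0.31, and by 0.69 with each chromosome centred. Against flox, Crk rose by 0.77 ± 0.11 in null cells (adjusted p = 0.000148). In null Eα cells its difference from flox was -0.23 ± 0.11 (adjusted p = 0.0872), and 0.34 with each chromosome centred (adjusted p = 0.0165).

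For each of the 9 genes, the gene outside the family with the most similar profile over the 9 arrays was found by Pearson correlation among 16925 named genes. For Efnb2 it was Fgf5, a fibroblast growth factor (r = 0.99), whose mean was 8.11 in null Eα, 9.88 in null and 6.13 in flox cells. For Ephb3 it was Rbm47, an RNA-binding protein (r = 0.99), at 8.59, 5.42 and 8.44 in the same order. Epha7 was matched by Tax1bp3 (r = 0.99), at 7.92, 9.70 and 9.70, and Epha2 by Cldn11, a claudin (r = 0.98), at 5.51, 5.05 and 4.76. The others were Mgat2 for Epha1, Nmd3 for Epha4, Hipk1 for Ephb4, Pygl for Efna1 and Smoc2 for Efnb1, with r from 0.97 to 0.98. Many genes share such profiles: at an r of at least 0.9 there were 700 for Efnb2, 339 for Ephb3 and 10 for Epha4.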

How the data were processed

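Values were used as deposited. Per the submitters' processing notes they are RMA output (no version), and the authors' table gives them on the log2 scale, 1 per array for each transcript cluster. Biotin-labelled whole-transcript targets were hybridised, per the labels' protocols. Any pair of arrays, including pairs of different groups, held identical values at 1.29% to 4.83% of the 35556 features. The interquartile range was 3.21 to 3.37 on null Eα, 3.41 to 3.46 on null and 3.75 to 3.84 on flox arrays. Precision is limited by 3 arrays per group, and detection calls were not used here.

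A platform annotation table gave 1 symbol to 21789 features. For genes with several features the one with the highest mean was kept, which left 19938 genes. Chromosomes came from RefSeq (GRCm38.p6). One limma model (version 3.58.1, R 4.3.3) with a mean per group took in all 9 arrays, with 6 residual degrees of freedom and a prior of 4.04. A gene was called where p, adjusted by Benjamini and Hochberg's method across the 19938 genes, was under 0.05. The fit was also run on simulated data with independent normal noise and a small set of genes shifted in null cells only. Far more genes were called in the real data, so that run does not measure the error of calls here. Permutation tests used scipy 1.17.1.

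The 10 genes and all lists were chosen with earlier results of these data known. Named are the 10 genes, other family genes called with at least 1 log2 unit and the 3 called partners with the largest change per comparison. Also named are the nearest gene of each member, Ctnnb1, Cdh1 and Ctnna1. Marker genes and Efna4, Epha3, Epha5, Epha6, Epha8 and Ephb1 were named after their values were seen. Alternatives were median centring, quantile normalization, leaving out dim genes, averaging features, a trend and robust prior, fitting only the groups compared, chromosome centring, a replicate block and leaving out each array.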

Additional observations from a re-analysis of the deposited data

Results flagged for a closer look

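Epha1 was the 1 gene of the 9 whose null and null Eα arrays lay on opposite sides of every flox array. Of all genes, 67.4% in null and 69.5% in null Eα cells did not overlap flox. The share of all genes on opposite sides was not counted. The difference between the lines, null Eα minus null, was -0.65 (limma adjusted p = 0.00136), with all 3 null Eα arrays below and all 3 null arrays above the flox arrays. The change against flox was -0.18 in null Eα (adjusted p = 0.16, not called) and 0.47 in null cells (adjusted p = 0.00389). The highest null Eα array, at 6.49, lay narrowly below the lowest flox array, at 6.53. With each chromosome centred, the null Eα value was 0.39 above flox (adjusted p = 0.00754) and the difference between the lines was -0.30 (adjusted p = 0.0447).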

How the results depend on the processing

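Of the 27 changes of single genes (9 genes in 3 comparisons), 12 kept direction and call under all alternatives. Over all 459 repeats, 398 kept both, 43 lost the call, 8 gained it and 10 changed sign. The count of called genes moved from 7 to 4 in null Eα against null in a fit of these 2 groups alone. Leaving out 1 array gave 4 to 8 called genes in null against flox, 3 to 5 in null Eα against flox and 4 to 6 in null Eα against null. The sign of Epha7 in null against flox turned with median centring (-0.017), and leaving out 1 array gave -0.060 to 0.12, negative without null replicate 1 or 3. In null Eα against flox, Epha4 turned with median centring (-0.049), and leaving out 1 array gave -0.10 to 0.13, negative without flox replicate 1 or null Eα replicate 3. In that comparison Ephb3 turned with median centring (-0.016), Ephb4 after quantile normalization (0.072) and Epha1 with chromosomes centred (0.39). In null Eα against null it turned for Efnb1 with chromosomes centred (0.10). The cause was not tested. Among the 12 other family genes, the called count in null against flox was 8, 4 after quantile normalization, 5 without flox replicate 3 and 5 of the 7 left when dim genes were dropped. It was 9 in null Eα against flox, and 4 of those 7. It was 4 in null Eα against null, and 2 in a fit of the 2 groups alone, without null replicate 1 or without null Eα replicate 2. Over all genes, dropping dim genes tested fewer genes and called 5548 of 11285 in null Eα against null, against 6330 of 19938. Chromosome centring moved the median of all genes to 0.18, 0.29 and 0.11 in null against flox, null Eα against flox and null Eα against null, from 0.06, 0.07 and 0.05.

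Whether replicate numbers pair the arrays was not settled. The deviations of same-numbered arrays from their group means correlated at -0.03 to 0.26, and those of differently numbered arrays at -0.20 to 0.14. With a replicate block, 7, 4 and 6 genes were called in the 3 comparisons, against 7, 4 and 7 without it, the lost call being Epha4 in null Eα against null (0.52, adjusted p = 0.0514). Not every array correlated best with its own number.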
